A study of Mus musculus with 6 samples.

Results

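The transcripts of 10 genes of the NF-kB system were followed in mouse embryonic fibroblasts (MEFs) given extra ORAI2, a subunit of store-operated calcium channels in the plasma membrane. The genes encode the NF-kB subunits (Nfkb1, Nfkb2, Rela, Relb), the inhibitory IkB proteins (Nfkbia, Nfkbib, Nfkbie), the nuclear family member Nfkbiz, and the ubiquitin-editing or ubiquitin-ligase proteins Tnfaip3 and Birc3. They were taken by symbol, through their Entrez numbers, from a table of 26532 genes, and all 10 were found. The ORAI2 group was 3 libraries of MEFs carrying a recombinant adenovirus with ORAI2, with the genotype label ORAI2 Overexpression. The GFP group was 3 libraries of MEFs carrying an adenovirus with green fluorescent protein, with the genotype label WT. Every library was labelled as osteogenic differentiation, so both groups share that treatment and an adenovirus. The labels are silent on any addition of BMP9, on the length of culture and on whether replicates were grown separately. The p-values therefore reflect spread between libraries that could be technical.

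NF-kB is a set of dimers of REL-family proteins that IkB proteins hold in the cytoplasm. Signals from tumour necrosis factor, interleukin-1 or Toll-like receptors activate the IkB kinase complex, the IkB is destroyed, and the freed dimer enters the nucleus and switches on genes. Among those genes are several of its own brakes, so that the level of Nfkbia, Nfkbie, Tnfaip3 or Birc3 mRNA is commonly read as an output of the pathway as well as a part of it. In bone, the pathway is known for its need in osteoclast formation and for restraining osteoblasts in inflammation.

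Total counts per library lay between 18526884 and 18844436. Orai2 had 67882, 53034 and 45140 counts in ORAI2 libraries, against 994, 914 and 909 in GFP libraries, so the counts follow the group labels. The deposited TPM column of ORAI2 replicate 3 went against this, with Orai2 at 36.3 TPM, against 24.8 to 38.2 TPM in the GFP columns, and the results below rest on the counts alone. The cell type label is mesenchymal stem cells. Of 8 markers of such cells 7 were expressed enough to test, while Thy1 had at most 3 counts in a library. At an adjusted p under 0.05, Alcam and Cd44 were higher in ORAI2 (log2 fold change 0.66 and 0.21). Ly6a, Vcam1 and Eng were lower (-0.96, -0.53 and -0.30), and Nt5e and Itgb1 did not pass. All 10 fibroblast markers were measured, and all 10 were called lower in ORAI2, as were 22.1% of all tested genes. Their summed level was 1913 to 2050 CPM (counts scaled to the library total) in ORAI2 libraries and 3213 to 3310 CPM in GFP libraries. The largest part of that drop came from Col1a1, which averaged 486 CPM in ORAI2 libraries and 1260 CPM in GFP libraries. The falls were unequal, with log2 fold changes from -3.46 (Col3a1) to -0.25 (Dcn). In bulk RNA, fewer cells of a type and less RNA per cell cannot be told apart.

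The promoters of Tnfaip3, which rose, and of Nfkbia, Nfkbie and Nfkb2, which fell, carried the same kind of motif, while that of Birc3, which also fell, did not. RefSeq promoter windows (build GRCm38.p6, 250 bases before to 50 after an annotated start) were at hand for 7 of the 10 members. They are shown for the member that rose and for 3 of those that fell, 5′ to 3′ on the gene's strand, with matches to kB motifs in capitals. The windows are chr10:19015361-19015660 on the minus strand for Tnfaip3, chr12:55492598-55492897 on the minus strand for Nfkbia, chr17:45555450-45555749 on the plus strand for Nfkbie and chr19:46304487-46304786 on the plus strand for the upstream start of Nfkb2.
Tnfaip3: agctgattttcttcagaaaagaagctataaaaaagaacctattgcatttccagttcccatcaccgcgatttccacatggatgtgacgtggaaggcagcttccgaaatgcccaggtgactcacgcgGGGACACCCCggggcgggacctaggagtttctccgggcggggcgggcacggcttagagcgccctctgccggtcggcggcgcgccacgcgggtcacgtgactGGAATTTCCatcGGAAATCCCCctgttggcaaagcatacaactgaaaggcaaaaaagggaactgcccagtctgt
Nfkbia: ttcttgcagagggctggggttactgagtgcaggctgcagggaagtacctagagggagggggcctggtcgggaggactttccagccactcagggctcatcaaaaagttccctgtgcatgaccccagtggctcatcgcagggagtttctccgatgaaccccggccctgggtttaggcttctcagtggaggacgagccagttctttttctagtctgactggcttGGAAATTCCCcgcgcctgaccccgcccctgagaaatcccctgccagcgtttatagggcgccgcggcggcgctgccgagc
Nfkbie: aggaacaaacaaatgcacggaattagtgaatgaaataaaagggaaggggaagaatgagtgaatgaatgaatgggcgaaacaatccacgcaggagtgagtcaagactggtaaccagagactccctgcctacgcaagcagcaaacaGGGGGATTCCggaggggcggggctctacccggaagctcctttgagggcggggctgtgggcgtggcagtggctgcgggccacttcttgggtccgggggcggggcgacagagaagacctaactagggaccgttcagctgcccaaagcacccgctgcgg
Nfkb2: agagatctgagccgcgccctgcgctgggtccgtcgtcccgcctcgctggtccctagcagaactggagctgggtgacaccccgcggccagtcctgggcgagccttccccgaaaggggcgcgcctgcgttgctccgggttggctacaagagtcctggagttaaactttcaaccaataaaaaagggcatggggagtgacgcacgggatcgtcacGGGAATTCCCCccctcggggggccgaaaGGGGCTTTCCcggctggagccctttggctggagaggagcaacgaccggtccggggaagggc
The motifs searched, on both strands, were the 10-letter kB consensus and the 9-letter core GGAANTTCC, which can overlap the consensus. The Tnfaip3 window held 2 consensus matches, 125 and 12 bases before the start, and a core match 24 bases before it. The window of the other annotated Tnfaip3 start held no match to either motif. The Nfkbia window held a consensus match 29 bases before the start that also contains the core. The Nfkbie window held a consensus match 106 bases before the start. The Nfkb2 window held 3 consensus matches, of which those 39 and 38 bases before the start overlap each other and the third lies 11 bases before it. The windows of its other annotated starts held 2 and 1 consensus matches, of which 1 is shared because these windows overlap. No match was found in the windows of Rela, Nfkbib and Birc3, which says only that these letters are not in those windows. Counted by gene, 4 of 7 members had a consensus match, and 12.4% of the 10709 tested genes with a window did. The core was in 2 of the 7, and in 1.25% of those tested genes. A match is a description of the sequence and not evidence of a bound site.

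**Figure D1:**
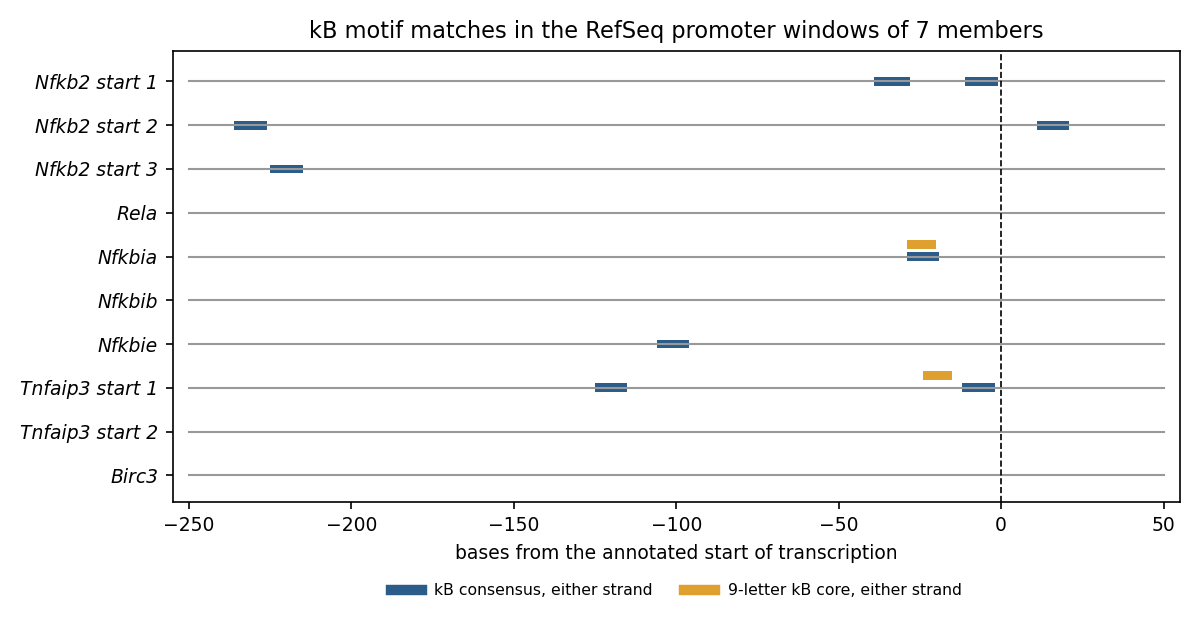
Position of kB motif matches in the RefSeq promoter windows of 7 members, in bases from the annotated start of transcription (dashed line), with 1 line per annotated start. Blue blocks are matches to the kB consensus and yellow blocks to the 9-letter core, on either strand. Matches lie in the windows of Nfkb2, Nfkbia, Nfkbie and the first start of Tnfaip3, and none in those of Rela, Nfkbib and Birc3.

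With ORAI2, 1 of the 10 members rose, 5 fell and 4 did not pass an adjusted p of 0.05. Tnfaip3 rose 1.36-fold, while Nfkbie fell to 0.630 of its level in GFP libraries, Birc3 to 0.763, Nfkbia to 0.828, Nfkbiz to 0.867 and Nfkb2 to 0.894. Of all 13764 genes tested, 42.9% were called (20.8% higher and 22.1% lower). The 6 of 10 members called are to be read against that background, as are the 1 of 10 higher and 5 of 10 lower. The groups did not overlap for the same 6 members, a property that 52.8% of all tested genes had (26.2% higher and 26.6% lower). The median log2 fold change was -0.10 over the 10 members and 0.00 over all tested genes, and the median absolute log2 fold change was 0.18 over both. No member was lost to the filter on low counts.

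**Figure D2:**
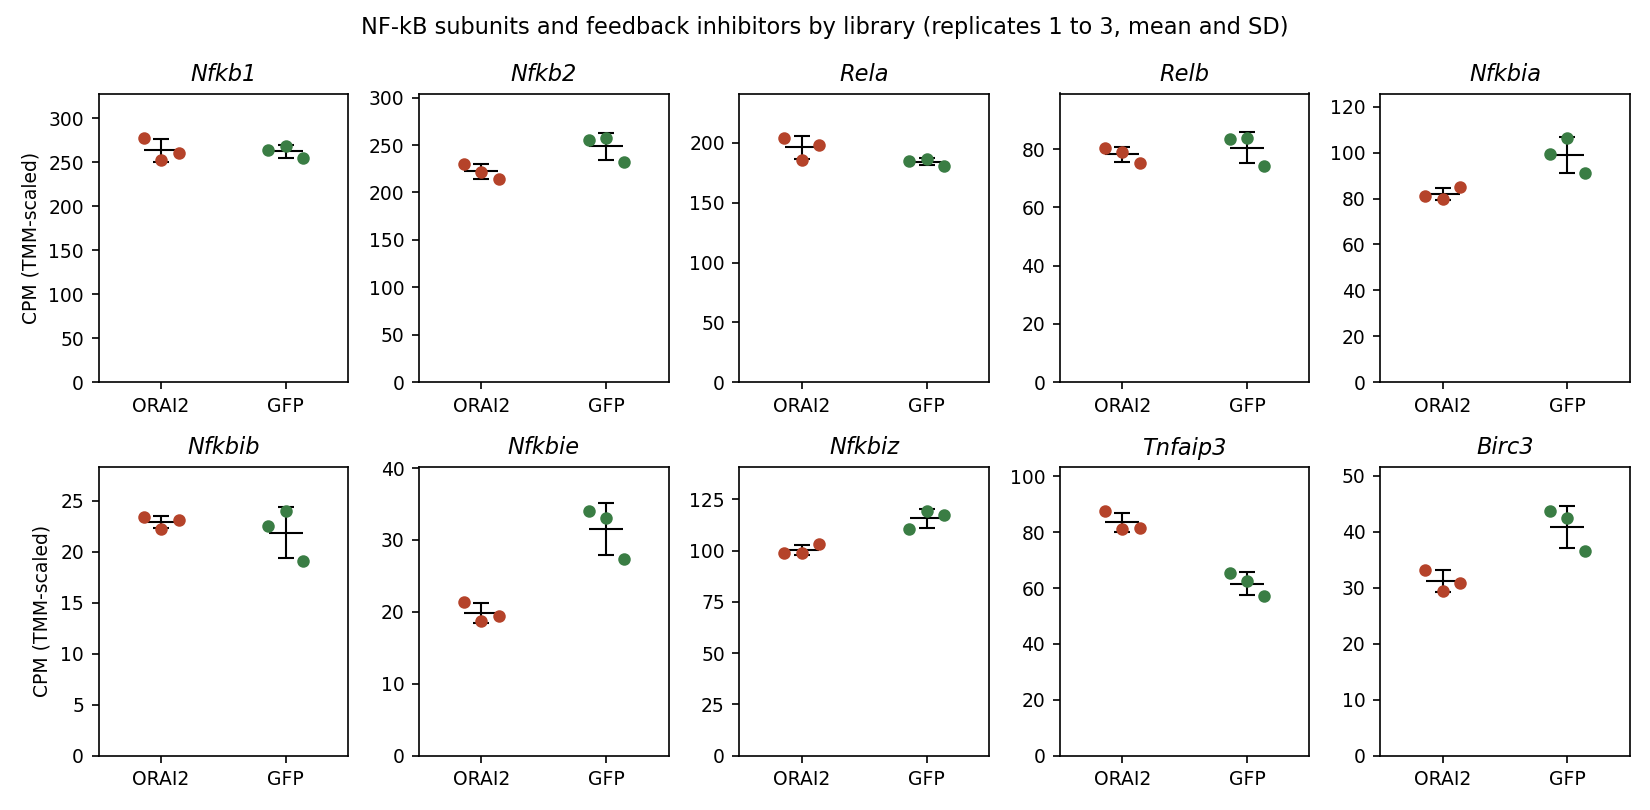
Level of each of the 10 members in CPM after TMM scaling (an adjustment of library totals for composition), per library. Points are replicates 1 to 3 of the ORAI2 group (red, left) and the GFP group (green, right), and bars are the mean and SD of 3 libraries. The groups are apart for Nfkb2, Nfkbia, Nfkbie, Nfkbiz, Tnfaip3 and Birc3 and overlap for Nfkb1, Rela, Relb and Nfkbib.

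Of the 4 subunit genes, 1 fell and 3 did not pass. Nfkb1 encodes p105, the precursor of the p50 subunit, which itself acts as an IkB until it is processed. It was at 278.3, 252.9 and 260.4 CPM in ORAI2 libraries, against 264.0, 269.0 and 254.8 CPM in GFP libraries. These values overlap, and the log2 fold change was 0.01, with a 95% interval of -0.08 to 0.10 (adjusted p = 0.911, by the quasi-likelihood test of edgeR adjusted over all tested genes, as for every adjusted p here). Rela encodes p65, the main transactivating subunit. It was at 205, 186 and 198 CPM in ORAI2 libraries, against 185, 187 and 181 CPM in GFP libraries. ORAI2 replicate 2 lay inside the GFP range while the other two ORAI2 libraries lay above it, and the log2 fold change of 0.09 did not pass (95% interval 0.00 to 0.18 before adjustment, adjusted p = 0.0852). Without ORAI2 replicate 2, Rela passed with a log2 fold change of 0.13 (adjusted p = 0.0155), which raised the number of members called higher to 2.

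Relb and Nfkb2 encode the partners of the non-canonical pathway, RelB and p100, the precursor of p52. Relb was at 80.3, 79.1 and 75.2 CPM in ORAI2 libraries, against 83.4, 84.0 and 74.3 CPM in GFP libraries, which overlap (log2 fold change -0.04, 95% interval -0.15 to 0.07, adjusted p = 0.534). Nfkb2 was at 230.1, 222 and 214 CPM in ORAI2 libraries, against 256, 258 and 232 CPM in GFP libraries. All 3 ORAI2 libraries lay below the GFP libraries, but the highest of them and GFP replicate 3 were close. Nfkb2 averaged 222 ± 7.85 CPM in ORAI2 libraries and 248 ± 14.6 CPM in GFP libraries (SD, n = 3 each), a log2 fold change of -0.16 (SE 0.05, adjusted p = 0.0122). The call was lost without ORAI2 replicate 3 (log2 fold change -0.13, adjusted p = 0.0616) and without GFP replicate 2 (-0.14, adjusted p = 0.0650). Exons of Nfkb2 overlap those of Psd on the opposite strand over 299 bases, and those of the long noncoding RNA AC114539.1 over 531 bases, in the GENCODE M21 annotation. The use of strand in the authors' counting is not stated, and Psd itself had at most 261 counts in a library.

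The 3 IkB genes, whose proteins mask the nuclear localisation signal of NF-kB dimers, included 2 that fell and 1 that did not pass. Nfkbia encodes IkB alpha, the fast inhibitor that NF-kB itself induces. It was at 81.3, 79.8 and 84.9 CPM in ORAI2 libraries, against 99.4, 107 and 90.9 CPM in GFP libraries. Every ORAI2 library was below every GFP library, with means of 82.0 ± 2.59 CPM in ORAI2 libraries and 99.0 ± 7.84 CPM in GFP libraries (SD, n = 3 each; log2 fold change -0.27, SE 0.05, adjusted p = 0.00140). Nfkbie encodes IkB epsilon, a slower inhibitor of the same loop. It was at 21.4, 18.7 and 19.4 CPM in ORAI2 libraries, against 34.0, 33.1 and 27.4 CPM in GFP libraries. GFP replicate 3 was the lowest GFP library, yet still above all 3 ORAI2 libraries. Nfkbie averaged 19.8 ± 1.43 CPM in ORAI2 libraries and 31.5 ± 3.58 CPM in GFP libraries (SD, n = 3 each), 1.59-fold lower (log2 fold change -0.67, SE 0.09, adjusted p = 5.49e-05). An absolute log2 fold change of this size or more was found in 8.89% of tested genes. For the other called members that share was 17.7% (Tnfaip3), 21.0% (Birc3), 33.9% (Nfkbia), 44.3% (Nfkbiz) and 54.1% (Nfkb2).

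Nfkbib encodes IkB beta, which is not induced by NF-kB in the same way. It was at 23.4, 22.2 and 23.1 CPM in ORAI2 libraries, against 22.5, 24.0 and 19.1 CPM in GFP libraries. These overlap, and the log2 fold change was 0.07 (95% interval -0.11 to 0.25, adjusted p = 0.549). Its sign turned without GFP replicate 3 (-0.02). Exons of Nfkbib overlap those of Sirt2 on the opposite strand over 42 bases, and Sirt2 had up to 1140 counts in a library. Nfkbiz encodes IkB zeta, a nuclear protein that works with NF-kB at a subset of its targets, such as Il6 and Lcn2. It was at 99.0, 98.8 and 103 CPM in ORAI2 libraries, against 110.4, 119 and 118 CPM in GFP libraries. The groups did not overlap and the spread within each was small (100.3 ± 2.42 CPM in ORAI2 libraries and 116 ± 4.75 CPM in GFP libraries, SD, n = 3 each; log2 fold change -0.21, SE 0.04, adjusted p = 0.00134).

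Of the last pair, both ubiquitin regulators of the signal upstream of the IkB kinases, 1 rose and 1 fell. Tnfaip3 encodes A20, which edits ubiquitin chains and shuts off signalling from the receptors. It was at 87.6, 81.3 and 81.6 CPM in ORAI2 libraries, against 65.2, 62.5 and 57.0 CPM in GFP libraries. The lowest ORAI2 library was well above the highest GFP library, with means of 83.5 ± 3.55 CPM in ORAI2 libraries and 61.6 ± 4.18 CPM in GFP libraries (SD, n = 3 each; log2 fold change 0.44, SE 0.05, adjusted p = 3.00e-05). Birc3 encodes cIAP2, a ubiquitin ligase at the TNF receptor that NF-kB also induces. It was at 33.2, 29.4 and 30.9 CPM in ORAI2 libraries, against 43.7, 42.4 and 36.6 CPM in GFP libraries. It was lower in each ORAI2 library than in any GFP library (31.2 ± 1.93 CPM in ORAI2 libraries and 40.9 ± 3.80 CPM in GFP libraries, SD, n = 3 each; log2 fold change -0.39, SE 0.07, adjusted p = 8.17e-04). No member shares an identical annotated transcript with another gene. Birc3 and its paralog Birc2, which also fell (log2 fold change -0.47, adjusted p = 5.51e-05), are similar, so counting could split reads between them.

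**Figure D3:**
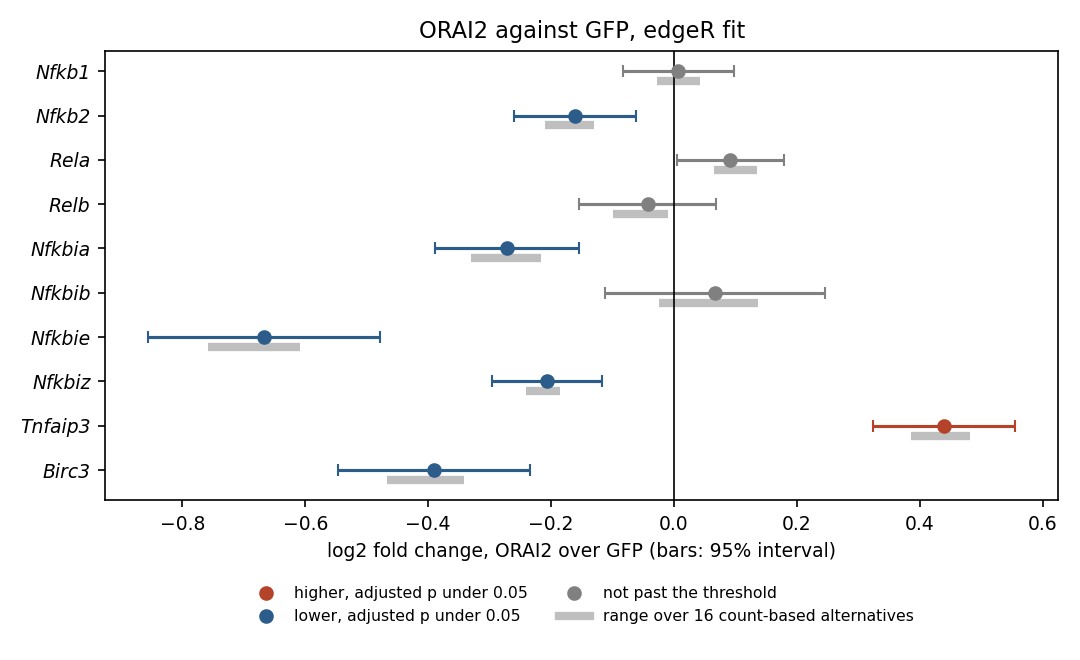
Log2 fold change of each member, ORAI2 over GFP, from the edgeR fit over 13764 genes, with its 95% interval before adjustment. Grey bars give the range over 16 alternative treatments of the counts. Tnfaip3 is the only member right of 0 past the threshold, Nfkb2, Nfkbia, Nfkbie, Nfkbiz and Birc3 are left of 0 past it, and the grey bars of Nfkb1 and Nfkbib cross 0.

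The libraries of a group were not evenly spread over the members. GFP replicate 3 was the lowest GFP library for 9 of the 10 members, ORAI2 replicate 1 the highest ORAI2 library for 8 and ORAI2 replicate 2 the lowest for 8. How often these libraries held those places over all tested genes was not counted. With each library left out in turn, the log2 fold change of Tnfaip3 ranged from 0.39 to 0.48 and that of Nfkbie from -0.76 to -0.61. That of Birc3 ranged from -0.47 to -0.34, that of Nfkbia from -0.33 to -0.22 and that of Nfkbiz from -0.24 to -0.19. These 5 kept their calls with every library left out.

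Levels were compared between genes as CPM per kilobase of the median basic coding transcript in GENCODE M21. In the GFP libraries the subunit genes Nfkb2, Nfkb1 and Rela led, at 79.2 ± 4.65, 73.7 ± 2.03 and 67.8 ± 1.11 CPM per kb (SD, n = 3). Nfkbia followed at 62.7 ± 4.97 CPM per kb, Relb at 36.6 ± 2.47 and Nfkbiz at 29.5 ± 1.21. The lowest 4, Birc3, Tnfaip3, Nfkbib and Nfkbie, lay between 13.1 and 14.7 CPM per kb, a range close to their SDs of 0.96 to 1.53. In the ORAI2 libraries the same 4 were spread out, with Tnfaip3 at 19.1 ± 0.81, Nfkbib at 13.9 ± 0.37, Birc3 at 11.2 ± 0.69 and Nfkbie at 8.28 ± 0.59 CPM per kb (SD, n = 3).

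Ratios within a library do not depend on how libraries are scaled to each other. The 3 IkB genes summed to 0.284, 0.292 and 0.305 of the 4 subunit genes, per kilobase, in ORAI2 libraries, against 0.347, 0.362 and 0.328 in GFP libraries. Nfkbia stood at 0.684, 0.739 and 0.736 of Rela in ORAI2 libraries, against 0.923, 0.984 and 0.866 in GFP libraries. Both ratios were lower in every ORAI2 library, while the summed subunits overlapped (246 to 263 CPM per kb in ORAI2 libraries, 246 to 265 in GFP libraries). Nfkbia enters both ratios and was the largest part of the IkB sum. It averaged 52.0 of 74.1 CPM per kb in ORAI2 libraries and 62.7 of 89.1 in GFP libraries. Of the other IkB genes, Nfkbie fell and Nfkbib overlapped between the groups, so the lower sum is not a fall of every IkB gene. Tnfaip3 was at 1.68, 1.76 and 1.68 times Birc3 in ORAI2 libraries, against 0.951, 0.939 and 0.993 times in GFP libraries. Tnfaip3 was at 0.388, 0.367 and 0.346 of Nfkbia in ORAI2 libraries, against 0.236, 0.211 and 0.226 in GFP libraries. The ratios of Tnfaip3 to Birc3 and to Nfkbia were higher in every ORAI2 library. This follows from the member values, as Tnfaip3 was higher and Birc3 and Nfkbia lower in every ORAI2 library. Their size depends on the transcript lengths chosen, and in CPM without lengths Tnfaip3 was above Birc3 in all 6 libraries. These ratios were formed after the values were seen and were not tested.

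**Figure D4:**
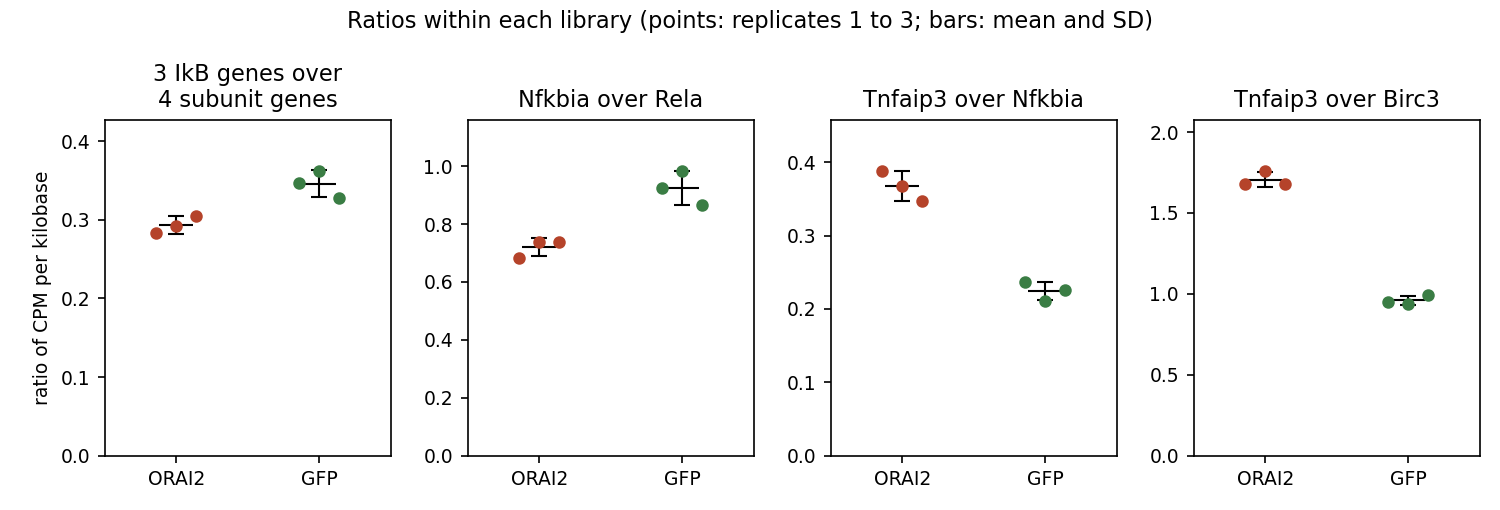
Ratios of CPM per kilobase within each library for the summed IkB genes over the summed subunit genes, Nfkbia over Rela, Tnfaip3 over Nfkbia and Tnfaip3 over Birc3. Points are the replicates of the ORAI2 group (red, left) and the GFP group (green, right), and bars are the mean and SD of 3 libraries. The groups do not overlap in any panel, with lower values in ORAI2 for the 2 panels on the left and higher values for the 2 on the right. In the 2 panels on the right this follows from the separate groups of the members themselves. Nfkbia enters both panels on the left and is the largest part of the IkB sum.

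Beyond the members, pathway genes were counted by role. Of all tested genes, 20.8% were called higher and 22.1% lower, with a median log2 fold change of -0.002. The counts and medians of each list are to be read against that background. Of 11 ligands, 6 were expressed enough to test, of which 4 fell and 2 did not pass. Il1a, the cytokine interleukin-1 alpha, was at 3.99, 4.22 and 5.41 CPM in ORAI2 libraries, against 8.32, 8.62 and 6.64 CPM in GFP libraries (log2 fold change -0.79, adjusted p = 7.81e-04). Eda, the ligand ectodysplasin, fell by 0.35 on the log2 scale (adjusted p = 0.00235). Tnfsf11, the osteoclast cytokine RANKL, and Tnfsf15 were called lower but scarce, at most 0.480 and 0.801 CPM in an ORAI2 library and at most 1.02 and 1.29 CPM in a GFP library, and both fell out under a filter at 5 CPM, which left 2 ligands called. Tnf itself was below the filter and was not tested in the main fit, with 4 counts over the ORAI2 libraries and 13 over the GFP libraries. Il1b had 1 count in all, too few for a difference to be detected. No difference is read from either gene.

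Of 14 receptors 11 were tested, 2 rose, 5 fell and 4 did not pass, with a median log2 fold change of -0.18. Tlr3, the sensor of double-stranded RNA, was at 38.9, 46.2 and 39.7 CPM in ORAI2 libraries, against 99.2, 98.2 and 84.9 CPM in GFP libraries (log2 fold change -1.18, adjusted p = 1.01e-07). Tlr2, a sensor of bacterial lipoproteins, and Il1r1, the interleukin-1 receptor, fell by 0.61 and 0.31 on the log2 scale (adjusted p = 3.46e-06 and 5.53e-04). Tnfrsf12a, the receptor of TWEAK, rose, at 305, 302 and 297 CPM in ORAI2 libraries against 199, 194 and 174 CPM in GFP libraries (log2 fold change 0.67, adjusted p = 2.65e-07). Without GFP replicate 2 only 1 receptor was called higher.

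The 21 adaptors and kinases were all tested. Of them 6 rose, 6 fell and 9 did not pass, with a median log2 fold change of 0.08. Chuk, the kinase IKK alpha, was at 134, 136 and 130 CPM in ORAI2 libraries, against 97.6, 101 and 101 CPM in GFP libraries (log2 fold change 0.42, adjusted p = 2.12e-06). Myd88, the adaptor of interleukin-1 and Toll-like receptors, was at 52.2, 48.8 and 46.3 CPM in ORAI2 libraries, against 73.3, 73.7 and 64.4 CPM in GFP libraries (log2 fold change -0.52, adjusted p = 2.28e-05). The ubiquitin ligase Birc2 and the adaptor Traf5 also fell, by 0.47 and 0.68 on the log2 scale.

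Of 17 other family members and terminators 1 rose, 4 fell and 12 did not pass. The gene that rose was Rnf11, a partner of A20, at 333, 337 and 348 CPM in ORAI2 libraries, against 242, 234 and 236 CPM in GFP libraries (log2 fold change 0.52, adjusted p = 2.09e-07). Tnip3, another A20-binding protein, fell by 0.88 on the log2 scale (adjusted p = 5.50e-05). N4bp1 and Bcl3, a nuclear IkB-like protein, fell by 0.35 and 0.41. Rel, the c-Rel subunit, and Cyld, a deubiquitinase that opposes the pathway, had log2 fold changes of -0.08 and 0.03 and did not pass (adjusted p = 0.273 and 0.571).

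All 30 target genes were tested, of which 14 fell, 5 rose and 11 did not pass, with a median log2 fold change of -0.20. Nos2, the inducible nitric oxide synthase, was at 42.9, 50.6 and 52.6 CPM in ORAI2 libraries, against 127, 125 and 113 CPM in GFP libraries (log2 fold change -1.32, adjusted p = 2.72e-08). Irf1, a transcription factor, and Tapbp, a protein of antigen loading, fell by 0.81 and 0.62 on the log2 scale (adjusted p = 2.12e-07 for each). Tlr3, Irf1, Tapbp, Nos2, Myd88 and Cxcl10 (log2 fold change -0.29, adjusted p = 0.00218) are also known as genes induced by interferon, and the part of that response in these falls was not tested. Bcl2l1, the survival protein BCL-XL, was at 108, 106 and 111 CPM in ORAI2 libraries, against 72.9, 71.8 and 72.1 CPM in GFP libraries (log2 fold change 0.58, adjusted p = 1.61e-07). Ptgs2 and Ier3 rose more, by 0.97 and 0.76 on the log2 scale (adjusted p = 7.41e-07 and 9.39e-07). Tnfaip2 and Ccl5 rose less, by 0.15 and 0.10. Of the IkB zeta targets named above, Il6 fell by 0.54 on the log2 scale (adjusted p = 8.49e-05), whereas Lcn2 did not pass (log2 fold change -0.04, adjusted p = 0.531). The remaining targets called lower were Cx3cl1, Cxcl5, Saa3, C3, Vcam1, Ccl20, Ccl7, Sdc4 and Ccl2. Their log2 fold changes ran from -0.99 (Cx3cl1) to -0.17 (Ccl2).

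**Figure D5:**
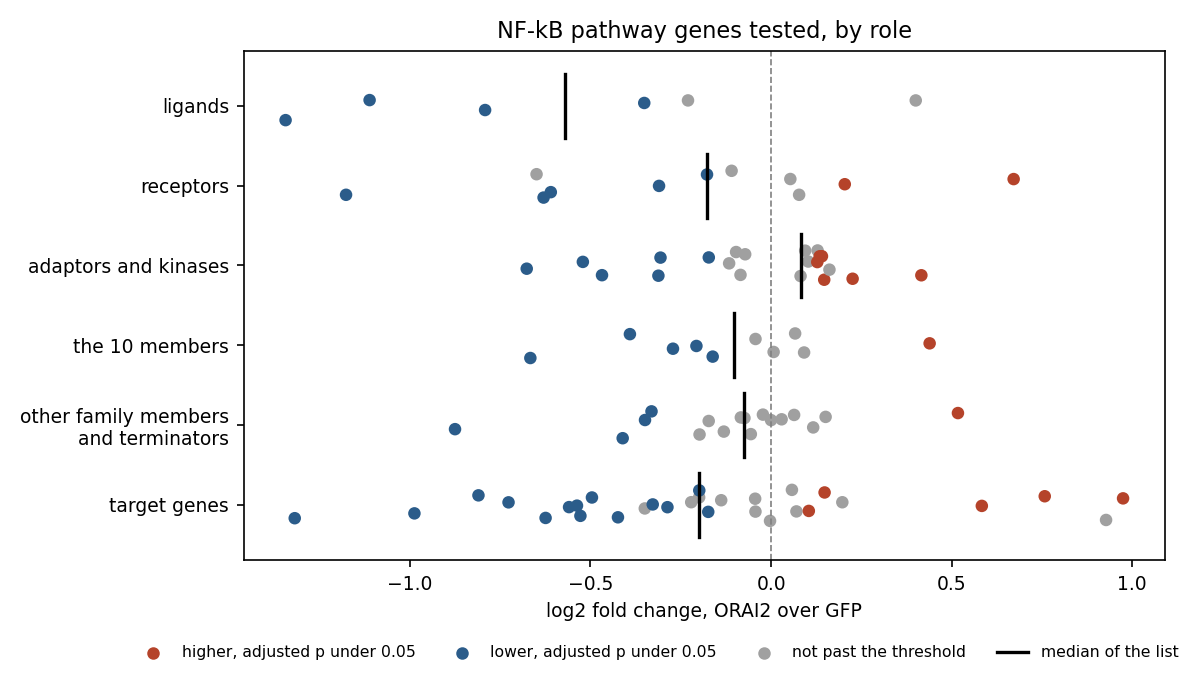
Log2 fold change, ORAI2 over GFP, of every tested gene of the NF-kB pathway, by role. Red points were called higher, blue points lower and grey points neither at an adjusted p of 0.05, and black bars are the medians of each list. Adaptors and kinases are split evenly, 6 higher and 6 lower, and target genes have 14 lower and 5 higher. Of all tested genes, 20.8% were called higher and 22.1% lower.

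Macrophages respond strongly through NF-kB. Of 10 macrophage markers 3 were expressed enough to test, and Mpeg1 and Cd14 were lower in ORAI2 while Cd68 did not pass. Summed over the list they were at 26.7 to 36.0 CPM in ORAI2 libraries and 52.0 to 55.7 CPM in GFP libraries. The defining markers were near 0, with at most 4 counts of Csf1r, 2 of Ptprc, 2 of Itgam and 1 of Aif1 in a library. Lyz2 went the other way, with 18 counts over the ORAI2 libraries and 8 over the GFP libraries, while Csf1r had 6 counts over the ORAI2 libraries and 7 over the GFP libraries and Ptprc 3 over each. Adgre1 and Tyrobp were not analysed here. Lymphocyte markers summed to at most 0.108 CPM in an ORAI2 library and 0.0531 CPM in a GFP library over the 2 of 6 that were analysed. Endothelial markers, with Emcn at 0, summed to 16.3 to 17.5 CPM in ORAI2 libraries and 6.42 to 8.88 CPM in GFP libraries. That sum was carried by Vwf (10.2 CPM in ORAI2 libraries, 3.70 in GFP libraries) and Kdr (6.24 CPM in ORAI2 libraries, 3.11 in GFP libraries). The scarce Pecam1 and Tek went the other way, with 9 and 2 counts over the ORAI2 libraries and 16 and 8 over the GFP libraries. Epithelial markers, with Epcam at 0, summed to 4.32 to 5.23 CPM in ORAI2 libraries and 2.85 to 3.85 CPM in GFP libraries. The higher sum came mainly from Grhl2 (log2 fold change 2.23, adjusted p = 1.31e-04), while Krt18 did not pass (-0.23, adjusted p = 0.372). The scarce Cdh1 and Cldn4 had 9 and 5 counts over the ORAI2 libraries and 13 and 6 over the GFP libraries. Krt8 had 4 counts over the ORAI2 libraries and 2 over the GFP libraries. The part of these markers' cells in the members' differences was not tested.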

How the data were processed

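RNA was measured by poly(A) sequencing in 6 libraries, 3 ORAI2 and 3 GFP, grouped by their titles. The submitters' processing notes name the tools Salmon 1.4.0 and HISAT2 2.0.4 and the build GRCm39; the role of each, the annotation and the handling of strand were not given. The authors deposited a single table that, per the file headers, holds counts (whole numbers, which may be read counts or rounded estimates) and TPM values for each gene and library. The deposited TPM values disagreed with the same-named counts and entered no main result.

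Entrez numbers were matched to symbols through a RefSeq table of GRCm38.p6 (25631 of 26532, 96.6%), which also gave the promoter windows. Counts were tested with edgeR 4.0.16 in R 4.3.3 (TMM, filterByExpr with a minimum count of 10, glmQLFit and glmQLFTest, ORAI2 against GFP as the only term), with Benjamini-Hochberg adjustment over the 13764 genes tested and a threshold of 0.05. Levels are CPM after TMM scaling, marker sums are CPM without it, and standard errors come from the F statistic. Within groups, pairs of libraries had a chi-square per gene of 2.54 to 4.50, so none was a copy. The steps were also run on simulated counts. Far fewer genes were changed there than the 42.9% called here, so that run does not check scaling or error rates for these data.

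The members and lists were chosen with earlier results of these data known. All members are named, and from each pathway list up to 4 called genes of smallest p. Cyld, Rel, Lcn2, Il6, Cxcl10, Ptgs2, Ier3, Tnfaip2, Ccl5, Tnf and Il1b, and the remaining target genes called lower, were named after their values were seen. Alternatives were RLE, upper quartile and library-size scaling, no filter, a 5 CPM minimum in 3 libraries, DESeq2 1.42.0, limma-voom (limma 3.58.1), a robust fit, a replicate block, thinning and each library left out. Fits to the TPM columns, with limma on log2(TPM + 1), were added after the data were seen.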

Additional observations from a re-analysis of the deposited data

How the results depend on the processing

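Under the 16 alternative treatments of the counts, Tnfaip3, Nfkbia, Nfkbie, Nfkbiz and Birc3 kept direction and call. With a library left out, the members called higher ranged from 1 to 2 and those called lower from 4 to 5, the changes being Rela and Nfkb2 as given above. Nfkb1, which never passed, ranged from -0.028 to 0.042 on the log2 scale with a library left out and was -0.014 with upper quartile scaling; Nfkbib ranged from -0.024 to 0.14. The replicate block left 1 member higher and 5 lower, with 3048 higher and 3198 lower of all tested genes. Same-numbered libraries correlated at 0.149, 0.084 and 0.155 in their deviations from the group means, not all over 0.1, so the number is not taken as a pairing, though each ORAI2 library correlated best with the GFP library of its own number. With limma on all 6 TPM columns no member was called in either direction (0 higher, 0 lower), and over all genes 2 were higher and 2 lower. At an unadjusted p under 0.05 that fit had 0 members and 1299 of 13764 genes. At that unadjusted level edgeR on the counts had 2 members higher and 5 lower. The share of all tested genes there was not counted, and it was 42.9% at an adjusted p under 0.05. In the TPM fit Nfkb2 turned to 0.0099 and Relb to 0.14. With the TPM columns numbered 1 and 2 alone, 1 member was higher and 4 lower, over all genes 1232 higher and 1966 lower, and Nfkb1 was at -0.055. The cause was not tested. Depth limits Tnf, Lta, Ltb and Il1b, with at most 6 counts in a library.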

Other observations

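The deposited TPM columns enter no main result, and their values for 3 members are given here. Tnfaip3 was listed at 35.8, 36.0 and 69.7 TPM in the columns ORAI2-1 to ORAI2-3, against 27.9, 25.7 and 49.7 TPM in the columns GFP-1 to GFP-3. Nfkbia was listed at 109.6, 117 and 251 TPM in the ORAI2 columns, against 149, 128 and 256 TPM in the GFP columns. Nfkbie was listed at 15.6, 16.3 and 33.6 TPM in the ORAI2 columns, against 28.0, 23.5 and 38.3 TPM in the GFP columns. For these 3 genes, and for Birc3 and Nfkbiz, the TPM columns numbered 3 stood above the others of their group. This did not hold for all members. GFP-3 was the lowest GFP column for Nfkb2, Rela, Relb and Nfkbib. Rela, for example, was listed at 143, 141 and 108 TPM in the columns GFP-1 to GFP-3. Over genes with more than 200 counts in every library, deviations from the mean of all libraries were compared between TPM and count columns. Columns of the same name correlated at 0.561, 0.665 and 0.125 for ORAI2-1 to ORAI2-3 and at 0.380, 0.410 and 0.344 for GFP-1 to GFP-3. Each TPM column correlated best with a count column of its own group but another number. ORAI2-1 did so with the counts of ORAI2-2 (0.786), ORAI2-2 with those of ORAI2-3 (0.722) and ORAI2-3 with those of ORAI2-1 (0.223). GFP-1 did so with the counts of GFP-2 (0.585), GFP-2 with those of GFP-3 (0.581) and GFP-3 with those of GFP-1 (0.430).

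Among tested genes with a RefSeq promoter window, 1324 had a kB consensus match and 9385 had none. Of those with a match 21.0% were called higher and 26.1% lower, against 21.2% and 21.8% of those without. The share called higher was thus nearly equal and the share called lower was larger among genes with a match; this was not tested.

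Tnfaip3 was the member of smallest p. The genes whose log2 CPM was most like it over the 6 libraries were Slc25a5, Sh3bgrl2 and Slc25a25, with Pearson r of 0.999, 0.998 and 0.997. The libraries fall into 2 groups, so a high r needs little more than a difference between them, and 755 of 10478 genes compared had an r above 0.95.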
